A study of Caenorhabditis elegans with 4 samples.

Results

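Isolated peaks of the transcription factor BLMP-1 were peaks that stood alone on the chromosome, at least 10000 bp from the next listed peak on either side. They were chosen by their positions and widths in the deposited list. A peak counted as isolated when it was narrower than 1200 bp and both gaps to its neighbours were 10000 bp or more, and the first and last peaks of each chromosome were left out. This gave 884 of the 10159 peaks, or 8.70% of the list and 9.24% of the 9572 narrow peaks. The other 8688 narrow peaks served as the reference. The list came from chromatin immunoprecipitation and sequencing (ChIP-seq) of Caenorhabditis elegans larvae at the fed L1 stage, with 2 ChIP libraries and 2 libraries of input DNA. The worms were hermaphrodites of strain OP109, kept at 20 °C, with the genotype unc-119 (ed3) III and wgIs109, a transgene of blmp-1 carrying TY1, EGFP and FLAG tags beside a wild-type unc-119 copy. ChIP and input shared this genotype, stage and temperature, so no untagged strain served as a control. The genotype lists no change of the endogenous blmp-1 gene, the transgene was studied in 1 strain made by particle bombardment, and whole worms were used. The ChIP protocol in the labels speaks of embryos, whereas the stage label is fed L1.

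BLMP-1 belongs to the PRDM family of zinc-finger factors and is related to mammalian PRDM1 (Blimp-1), a regulator of cell fate. In C. elegans it is present in the epidermis and in other tissues and is known for its part in developmental timing, including the migration of the gonadal distal tip cells and the cycle of cuticle formation at the moults. A ChIP-seq peak is a stretch where fragments recovered with the tagged protein outnumber those of the input. Many C. elegans factors are recovered in groups of nearby peaks, and a peak far from any other is the opposite arrangement.

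The list held 1 combined value for each peak and no value of a library. No replicate error could be given, the depth of the libraries is unknown, and no test was made of any difference, since the positions, widths and q-values all come from the ChIP to input comparison that chose the peaks. Differences are therefore described by counts, medians and quartiles. The 95% intervals in parentheses treat peaks as independent and cover counting error only, and peaks that lie near each other make them too narrow. Isolation refers to the list, which ends at q = 0.01, so weaker sites inside a gap were not seen. The spacing of the q-values also left room for 12 regions ranked before the strongest listed peak. These were not analysed here, and a peak counted as isolated could lie near one. All coordinates are on WormBase build WS180. Genes and DNA sequence at the peaks were not analysed here.

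Isolated peaks were weaker by q than other narrow peaks, where q measures the evidence for a peak and depends on the ratio of ChIP to input tags and, at a like ratio, on their number. Their median −log10 q was 6.89 (6.34 to 7.56) with quartiles of 3.76 and 13.0, against 9.88 (9.54 to 10.2) with quartiles of 4.67 and 24.0 in the other narrow peaks. The distributions overlapped over almost their whole range, and the upper quartiles lay farther apart than the lower ones. A q under 1e-20 was listed for 28.2% of all narrow peaks. It was listed for 130 of the 884 isolated peaks, 14.7% (12.4 to 17.2), and for 2573 of the others, 29.6% (28.7 to 30.6). A q under 1e-100 was listed for 2.00% of all narrow peaks, and for 11 isolated peaks, 1.24% (0.623 to 2.22), against 180 others, 2.07% (1.78 to 2.39). At the weak end, 11.4% of all narrow peaks had a q over 0.001, with 140 isolated peaks, 15.8% (13.5 to 18.4), and 954 others, 11.0% (10.3 to 11.7). The rule used the same calls, so these shares describe the peaks and test nothing.

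**Figure D1:**
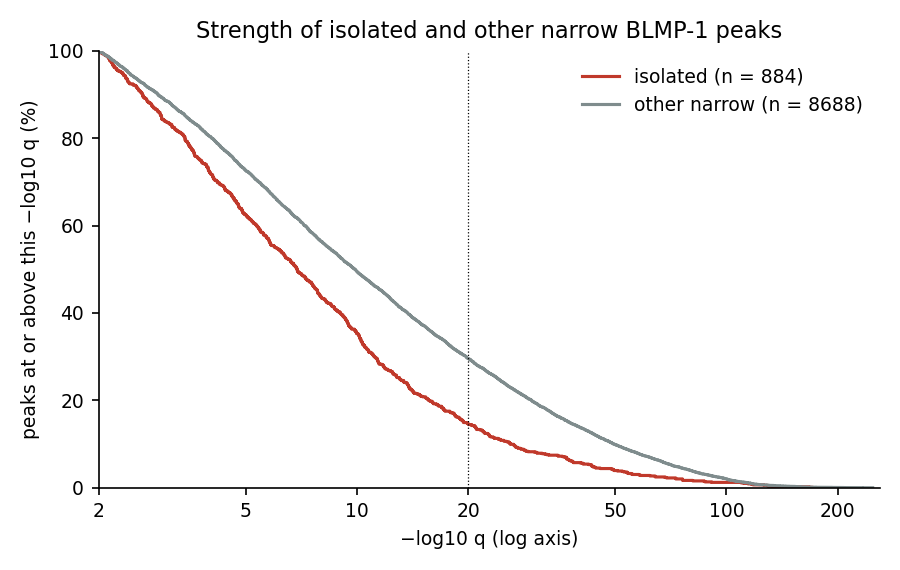
Share of peaks (y axis, %) at or above each −log10 q (x axis, log scale) for the 884 isolated peaks (red) and the 8688 other narrow peaks (grey). At the dotted line, −log10 q of 20, the red curve is at 14.7% and the grey curve at 29.6%.

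With the narrow peaks ranked by q and divided into 10 equal parts, the isolated share rose from the strongest to the weakest part. It was 4.08% in each of the strongest parts, 39 of 957 peaks in the first and 39 of 957 in the second. It was 6.90% in the third, 8.25% in the fourth and 11.4% in the fifth. From the sixth to the last it ran from 10.6% to 12.4%. Isolation was thus least common among the strongest peaks and varied little over the weaker ones. Of the 100 strongest narrow peaks, 8 were isolated, and of the 191 with a q under 1e-100, 11 were, against 9.24% of all narrow peaks. Counts this small do not fix the share among the very strongest peaks.

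Strength also fell in steps with the distance to the nearer neighbour. The median −log10 q was 12.3 (11.3 to 13.6) for 1890 narrow peaks with a neighbour within 500 bp and 12.1 (11.0 to 13.0) for 2029 at 500 bp to 1 kb. It was 9.06 (8.47 to 9.48) for 2665 at 1 to 3 kb and 7.86 (7.39 to 8.30) for 2094 at 3 to 10 kb. Among the isolated peaks, it was 7.28 (6.41 to 8.21) for 609 whose nearer neighbour was 10 to 20 kb away and 6.64 (5.54 to 7.56) for 246 at 20 to 50 kb. For the 29 peaks with 50 kb or more free on both sides it was 3.48 (2.79 to 7.24). On either side of the 10 kb limit the intervals of the median −log10 q overlapped, so the limit marked no clear step in q. Other measures did change there. The median input count, described below, rose from 124 (117 to 131) at 3 to 10 kb to 143 (134 to 153) at 10 to 20 kb. The share of peaks in the central part of a chromosome, also described below, fell from 62.9% to 45.8%. From the shortest to the longest gaps that share fell from 74.7% to 13.8%, and its part in the decline of q was not tested. Within the isolated peaks, Spearman's rho between the smaller gap and −log10 q was −0.11 over 884 peaks, which are not independent. For the ratio of ChIP to input tags described below, rho was −0.021, and its medians at 10 to 20 kb, 20 to 50 kb and beyond were 1.85, 1.88 and 1.73, so within the isolated peaks the ratio showed little relation to the gap. Peaks with 1 gap past the limit were intermediate, with a median −log10 q of 8.46 (8.07 to 8.94) over 3384 peaks, against 11.0 (10.5 to 11.6) for the 5294 narrow peaks with both gaps under it.

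**Figure D2:**
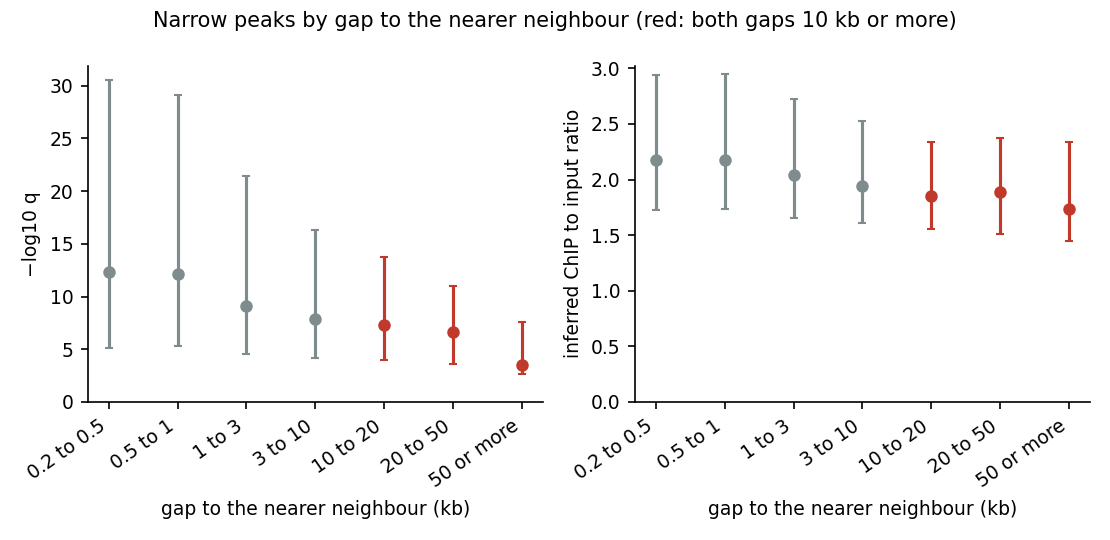
Median (point) and quartiles (bars) of −log10 q (left) and of the inferred ChIP to input ratio (right) of narrow peaks, by the gap to the nearer neighbour in kb (x axis). Red points are the isolated peaks. The medians of −log10 q run from 12.3 at the shortest gaps to 3.48 at gaps of 50 kb or more.

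The q-values could be turned back into tag counts. Each of 10157 of the 10159 q-values matched exactly 1 pair of whole ChIP and input counts under a binomial tail with equal odds, scaled by 16906 candidate regions over the rank. All narrow peaks were among them. The counts are inferred, stand for the combined list, and give the input as the peak caller scaled it. They carry the same information as q and are no independent measure, but they separate the ChIP from the input side. The median isolated peak had 263 ChIP tags (251 to 277) and 136 input tags (129 to 145), and the median other narrow peak 283 (277 to 289) and 128 (125 to 131). These differences in tags were not found on every chromosome. The isolated median of ChIP tags was the lower one on 3 of 6 chromosomes, and that of input tags was lower on V and X and equal on II. The median ratio of ChIP to input was 1.85 (1.80 to 1.90), with quartiles of 1.53 and 2.35, against 2.07 (2.06 to 2.10) with quartiles of 1.67 and 2.78. The excess of ChIP over input tags had a median of 108 (102 to 113) in isolated peaks and 129 (126 to 132) in the others. A ratio of at least 3 was found for 100 isolated peaks, 11.3%, and 20.4% of the others. A ratio under 1.5 was found for 199 isolated peaks, 22.5%, and 12.7% of the others.

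**Figure D3:**
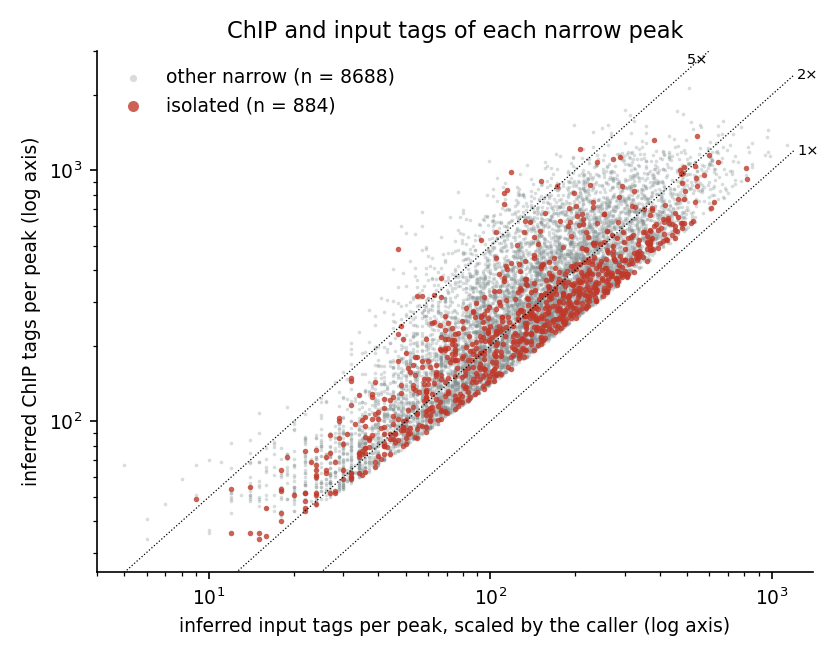
Inferred ChIP tags (y axis) against inferred input tags (x axis) for each narrow peak, both on log axes. Isolated peaks are red, the other narrow peaks grey, and dotted lines mark ratios of 1, 2 and 5. Isolated peaks lie over the whole range and are sparser in the upper part, where 11.3% of them and 20.4% of the others reach a ratio of 3.

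The difference in strength was large in peaks of 400 bp or more and small in the narrower width classes. Isolated peaks had a median width of 385 bp (377 to 403) and the other narrow peaks one of 409 bp (403 to 413). Under 250 bp, the median −log10 q was 3.81 (3.44 to 4.10) in 152 isolated peaks and 3.82 (3.71 to 3.96) in 1447 others. At 250 to under 400 bp it was 7.30 (6.46 to 8.26) and 8.31 (7.94 to 8.71). At 400 to under 700 bp it was 9.37 (8.18 to 10.4) in 308 isolated peaks and 17.4 (16.4 to 18.2) in 3210 others. At 700 to under 1200 bp it was 9.40 (7.53 to 11.9) in 110 isolated peaks and 25.1 (23.2 to 27.9) in 1286 others. Among other narrow peaks, then, q kept falling with width, while among isolated peaks it changed little above 400 bp.

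The inferred ratio also moved apart with width. Under 250 bp its median was 2.12 in isolated peaks and 2.01 (1.98 to 2.05) in the others, with overlapping intervals. Isolated peaks of this class had medians of 85.5 ChIP and 38 input tags, against 92 and 44. Among peaks of at most 50 bp the median ratio was 2.19 (1.93 to 2.40) in 21 isolated peaks. It was 2.25 (2.15 to 2.44) in 164 others, again with overlapping intervals. The median ratio of isolated peaks fell with width, from 2.12 (1.96 to 2.18) under 250 bp through 1.89 and 1.73 to 1.60 (1.45 to 1.69) at 700 to under 1200 bp. In the other narrow peaks it stayed between 2.01 and 2.16 in all 4 width classes. Spearman's rho between width and ratio was −0.28 across isolated peaks and 0.013 across the others. At 400 to under 700 bp, isolated peaks had a median of 366 ChIP tags and 201 input tags, against 395 and 172 in the others. At 700 to under 1200 bp they had 543 ChIP and 346 input tags (291 to 369), against 656 and 295 (287 to 305). Wide isolated peaks thus had fewer ChIP tags and more input tags at the median than other peaks of their width class. For peaks of 400 bp or more, both the median −log10 q and the median ratio of isolated peaks were below those of the others on 6 of 6 chromosomes, and the median input count was above on 6 of 6. Their median ChIP count was lower on 5 chromosomes and higher on X, with 515 against 478 tags. For peaks under 400 bp, −log10 q was lower on 4 chromosomes and higher on 2. The part of the higher input in the lower ratio was not tested.

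**Figure D4:**
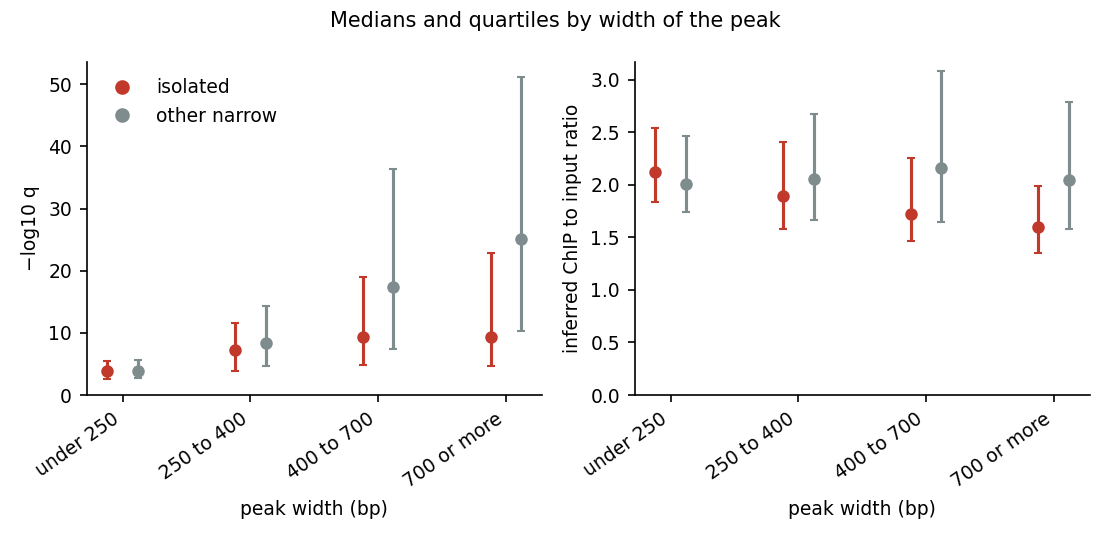
Median (point) and quartiles (bars) of −log10 q (left) and of the inferred ChIP to input ratio (right) by peak width in bp (x axis), for isolated (red) and other narrow peaks (grey). The medians of −log10 q are close under 250 bp and move apart with width, to 9.40 and 25.1 at 700 to under 1200 bp. The median ratios are 2.12 and 2.01 under 250 bp, with overlapping intervals, and 1.60 and 2.05 at 700 to under 1200 bp.

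Peaks were also set side by side within classes of input tags. With under 75 input tags, the median ChIP count was 102 (95.0 to 110.0) in 228 isolated peaks and 109 (107 to 112) in 2116 others, with overlapping intervals. From 75 to under 120 input tags it was 189.5 (181 to 204) and 210.0 (205 to 215), and from 120 to under 200 it was 278 (269 to 289) and 316 (309 to 323). At 200 or more it was 447 (429 to 481) in 267 isolated peaks and 543 (533 to 555) in 2333 others. The median input counts in the 4 classes were 48, 95, 154 and 274 in isolated peaks and 50, 95, 154 and 271 in the others. At like input the isolated peaks thus had fewer ChIP tags at the median, most visibly in the class of most input. The classes did not match in width. From 120 to under 200 input tags the median width was 413 bp (393 to 438) in isolated peaks and 460 bp (453 to 466) in the others. At 200 or more it was 615 bp (574 to 653) and 679 bp (667 to 692).

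Isolated peaks lay on the arms more often than other narrow peaks. A rule based on gaps can favour stretches with few peaks, and its part in this difference was not tested. The central part of a chromosome was taken from 0.25 to 0.75 of the span between its outermost peaks. It held 355 of the 884 isolated peaks, 40.2% (36.9 to 43.5), and 65.6% (64.6 to 66.6) of the other narrow peaks. The central share of isolated peaks was below that of the others on all 6 chromosomes. The contrast was largest on V, 38.4% against 74.9%, and smallest on X, 44.4% against 56.4%. On the autosomes, the fifth of 10 equal parts of the span held 41 isolated peaks among 1093 narrow ones, 3.75%, and the second part 96 among 453, 21.2%. The right arm of V had the highest isolated share of any arm, 61 of 185 narrow peaks, 32.97% (26.3 to 40.3), followed by its left arm with 61 of 276, 22.1% (17.3 to 27.5). The centre of II had the lowest, 48 of 1060, 4.53% (3.36 to 5.96).

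**Figure D5:**
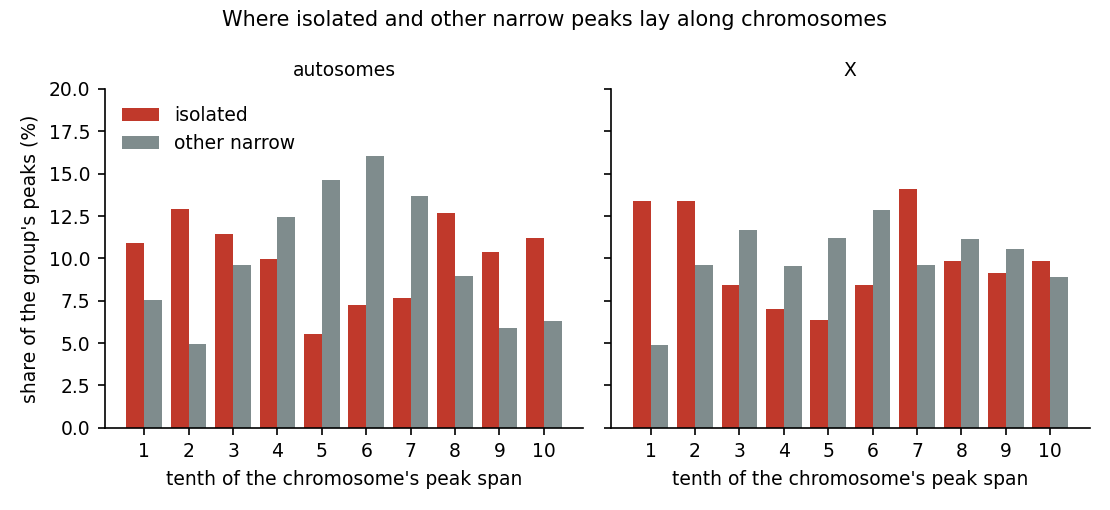
Share of isolated (red) and other narrow peaks (grey) in each of 10 equal parts of the span between the outermost peaks of a chromosome (x axis), for the 5 autosomes together and for X. On the autosomes the red bars are lowest in the fifth part, at 5.53% of the isolated peaks, where the grey bar is at 14.6%. On X the bars of isolated peaks run from 6.34% to 14.1% and those of the others from 4.90% to 12.9%.

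Isolated peaks were found on every chromosome and in all 102 stretches of 1 Mb that held narrow peaks, with a median of 8 per stretch. They numbered 160 on I, 117 on II, 127 on III, 140 on IV, 198 on V and 142 on X. As a share of the narrow peaks this was highest on V, 12.8% (11.2 to 14.6), and lowest on II, 7.35% (6.12 to 8.75). The interval of V overlapped that of I, 8.51 to 11.5, and no other, and the intervals of the other 5 chromosomes overlapped one another. The 1 Mb stretch with most isolated peaks lay on I from 3 to 4 Mb, with 19 among 116 narrow peaks, followed by I from 11 to 12 Mb and V from 4 to 5 Mb with 18 each. On each chromosome the isolated peaks had a lower median −log10 q than the others, with differences from −2.39 on V to −3.89 on II. Their median ratio was also lower on 6 of 6. The difference was largest on I, 1.82 against 2.17, and smallest on X, 1.82 against 1.94.

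At the median, isolated peaks of the arms were weaker by q than those of the centres. The median −log10 q was 5.83 (5.37 to 6.75) in 529 isolated peaks of the arms and 8.70 (7.53 to 9.53) in 355 of the centres. The strong ends were alike, with a 90th percentile of 26.1 on the arms and 25.7 in the centres. A q under 1e-100 was listed for 7 isolated peaks of the arms, 1.32%, and 4 of the centres, 1.13%. The other narrow peaks had a median −log10 q of 8.46 on the arms and 10.5 in the centres, so the isolated medians were below them in both zones. With each chromosome divided into left arm, centre and right arm, the isolated median was the lower one in 17 of 18 zones. The exception was the right arm of V, with 5.25 in isolated and 5.24 in other narrow peaks.

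The spacing of the isolated peaks was broad. The smaller of the 2 gaps had a median of 15482 bp and ran from 10026 to 155724 bp. The larger gap had a median of 30969 bp and reached 369153 bp. The smaller gap was at least 20000 bp for 275 peaks, at least 50000 bp for 29 and at least 100000 bp for 2. Some isolated peaks neighboured each other, and the rule makes this easier, since the neighbour of an isolated peak already has 1 gap past the limit. Both neighbours were isolated for 127 peaks, 1 neighbour for 366 and neither for 391. They formed 574 uninterrupted runs, of which 391 were single peaks and 32 had 4 or more peaks, with 154 peaks in those 32. A lower q than both neighbours was listed for 262 isolated peaks, 29.6%, and a lower q than neither for 325, 36.8%. These shares were close to the 31.4% and 33.9% of the 8678 other narrow peaks with a neighbour on each side.

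The longest runs had 8 peaks, and there were 3 of them. On I, from 11280622 to 11465140, 8 isolated peaks were spread over 185 kb, with q from 6.23e-92 to 0.00164. The strongest, from 11348506 to 11348959, had 487 ChIP and 47 input tags, and its ratio of 10.4 (7.67 to 14.3) was the highest of all 884. The other 7 had ratios from 1.66 to 4.50. On V, from 4698764 to 4847755, 8 peaks over 149 kb had q from 3.62e-37 to 0.00249. On V, near its right end, from 19640985 to 19904626, 8 peaks over 264 kb had q of 6.61e-12 or more, and one of them was a single base wide. The first of these runs thus mixed strong and weak peaks. The last held no peak with a q under 1e-20, which only 14.7% of all isolated peaks had.

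A few isolated peaks were among the strong peaks of the list. The strongest lay on V from 5385618 to 5386508, an 891 bp peak with q = 6.69e-171 and free gaps of 55.2 kb and 24.1 kb. It had 1217 ChIP and 209 input tags, a ratio of 5.82 (5.02 to 6.78), and ranked 14 among the 9572 narrow peaks and 45 in the whole list. The second, on V from 12928794 to 12929514, was 721 bp wide with q = 3.16e-168, 983 ChIP tags and 118 input tags, a ratio of 8.33 (6.88 to 10.2). The strongest on IV, from 2809159 to 2809765, had q = 3.66e-134, 837 ChIP tags and 115 input tags, with 80.3 kb free to its right. These 3 peaks lay apart from the bulk of the isolated peaks, of which 90% had a −log10 q under 26.0.

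The strongest isolated peaks of the remaining chromosomes also passed q = 1e-100. On II the peak from 13053302 to 13053846 had q = 3.60e-130 and a ratio of 7.26 (5.95 to 8.93). On I the peak from 14683553 to 14684365 had q = 4.09e-130 and lay at 97.9% of the span, close to the right end of the listed peaks. On X the peak from 2482747 to 2483679 had q = 8.75e-119 with 1317 ChIP and 381 input tags, a ratio of 3.46 (3.08 to 3.88). On III the peak from 4998139 to 4999182 had q = 9.35e-118 and a ratio of 4.07 (3.56 to 4.66). The ratio on X was thus the lowest of these 6, and its interval overlapped that on III.

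The others among the 15 strongest lay on II from 300785 to 301527 and from 2994473 to 2995331, on V from 9758186 to 9759188 and from 1892525 to 1893290, on I from 1792454 to 1793031, from 11348506 to 11348959 and from 14496311 to 14496939, and on X from 9666916 to 9668080. The 15 were spread over the chromosomes, with 4 each on I and V, 3 on II, 2 on X and 1 each on III and IV. Of the 15, 10 were on chromosome arms and 5 in centres, and the centres held 40.2% of all 884 isolated peaks. The median ratio of the 15 was 5.03 (range 2.54 to 10.4), and the median width 766 bp (range 454 to 1165 bp).

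The most remote isolated peaks were mostly weak. The smaller gap was largest, 155724 bp, at the peak on II from 1663516 to 1663982, which had q = 3.29e-04, 233 ChIP tags and 161 input tags, a ratio of 1.45 (1.18 to 1.78). It was 128259 bp at the peak on V from 2909568 to 2909844, with q = 0.00241. The peak on V from 17344930 to 17345219 bordered the longest gap, 369153 bp, and had q = 0.00107. The other 7 of the 10 most remote lay on V from 2780911 to 2781308, from 17159215 to 17159550 and from 18709714 to 18710421, on X from 1712613 to 1712776, from 1960866 to 1961733 and from 11797842 to 11798479, and on II from 3128806 to 3129463. Their ratios ran from 1.26 to 2.53. The lowest q of the 10 was 3.90e-12, at the first of these, so none reached 1e-20. A q under 1e-20 was listed for 14.7% of all isolated peaks and for 6.90% of the 29 with 50 kb or more free on both sides.

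The weakest isolated peaks stood just under the end of the list at q = 0.01. The highest q, 0.00982, belonged to a 975 bp peak on X from 16445439 to 16446413. It had 923 ChIP and 817 input tags, and its ratio of 1.13 (1.03 to 1.24) was the lowest of the 884, at the highest input count. The next were on II from 4194219 to 4194547 and from 5665187 to 5665351, on III from 4951143 to 4951263 and on V from 18231414 to 18231428, with q of 0.00915 or more and ratios from 1.36 to 2.19. Weak calls thus included wide peaks with many tags and a low ratio as well as short peaks with few tags. Among 21 isolated peaks of at most 50 bp, the median was 52 ChIP tags and 22 input tags, and 14 of the 21, 66.7% (43.0 to 85.4), had a q over 0.001. Of 164 other peaks this short, 68 did, 41.5% (33.8 to 49.4), with medians of 56.5 ChIP and 25 input tags. The median −log10 q was 2.40 (2.25 to 3.21) in these 21 and 3.29 (3.01 to 3.51) in the 164. The narrowest were 2 peaks of a single base on V, at 14027523 with 51 ChIP and 20 input tags and at 19640985 with 36 and 12.

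Peaks at the limits of the rule were as follows. Just inside the gap limit were a 129 bp peak on I from 1729673 to 1729801 (gap 10026 bp, q = 4.03e-04), a 414 bp peak on I from 5841821 to 5842234 (gap 10033 bp, q = 7.81e-44) and a 234 bp peak on V from 4709716 to 4709949 (gap 10054 bp, q = 2.59e-07). Just outside were a peak on I from 5986183 to 5986596 (gap 9979 bp, q = 1.28e-29) and a pair on X from 14115457 to 14115827 and from 14125787 to 14126227, which lay 9959 bp apart with q = 0.00280 and q = 2.22e-32. The widest isolated peaks, of 1166, 1165 and 1157 bp, lay on II from 6588534 to 6589699, on X from 9666916 to 9668080 and on I from 2876056 to 2877212, with ratios of 2.11, 2.54 and 1.67. The width limit left out 29 broader peaks with both gaps past 10000 bp. The narrowest of these were 1209, 1213 and 1217 bp wide, on IV from 1309545 to 1310753 and from 11210771 to 11211983 and on I from 12651922 to 12653138, with ratios of 1.18, 2.16 and 1.18. The median ratio of the 29 was 1.48 (1.30 to 1.95).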

How the data were processed

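The authors deposited 1 combined peak list, for which the file headers name build WS180 of WormBase and the source column names PeakSeq. The only value of a peak is its q-value, as deposited, for ChIP against input over both replicates. Aligner, PeakSeq version, read filters, depth and the manner of combining are not given in the sources used here. Fixation was in 2% formaldehyde, stopped by 100 mM Tris, and ChIP used a goat antibody against EGFP, per the labels.

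Peaks were sorted by chromosome and start, and gaps were taken between facing edges. Tag counts were solved from the q-values within a relative tolerance of 1e-11, searching totals up to 30000 tags. The number of candidate regions and the 12 ranks before the first listed peak were those under which most of the 60 weakest q-values were solved. Intervals are exact Clopper-Pearson for shares and ratios and by binomial ranks for medians, at 95%. Those of single-peak ratios take the scaled input tags as raw counts and the replicates as 1 pool. They therefore only approximate the counting error, and their overlap is a rough guide. No test was run. Peaks, lists and limits were chosen with earlier results of these data known. Named peaks were the 15 of lowest q, the lowest on each chromosome, the 10 most remote, the 5 of highest q, those at each limit, the longest runs and the narrowest. The peak of highest ratio was named after its value was seen. The gene table in hand was of another build (WBcel235) and was not combined with the peaks. Scripts were tested on simulated data. Tools were scipy 1.17.1 and numpy 2.4.6 for the statistics, pandas 2.3.3 for the tables and matplotlib 3.10.9 for the plots, under Python 3.11.15.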

Additional observations from a re-analysis of the deposited data

How the results depend on the processing

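In each of 9 other ways to choose the peaks, isolated peaks had a lower median −log10 q, a lower median ratio and a lower central share than the other peaks, and V had the highest isolated share of the chromosomes. Limits of 5000 and 20000 bp gave 1901 and 275 isolated peaks, with 51.9% and 27.6% in the centre. The 5000 bp limit gave 17.3% with q under 1e-20, and the 20000 bp limit 20.0% with q over 0.001. A list ended at q = 0.001 gave a median width of 404 bp, a median −log10 q of 8.37, 18.7% with q under 1e-20, a ratio of 1.96 and a difference from the others of −3.60. The 5079 strongest peaks alone gave 467 bp, 19.9, 49.8%, 2.52, −5.00 and 53.0% in the centre. In that setting weak peaks counted neither as neighbours nor as members. The difference, −2.99 over all, was −3.63 with no width limit, −1.68 with peaks closer than 1000 bp joined (lowest q taken, tags summed) and −6.06 against peaks with both gaps under 3000 bp. Joining also changed the groups, to 914 isolated and 4999 other peaks instead of 884 and 8688. The median −log10 q of the others was then 8.64 instead of 9.88. By width, without joining, the difference was −0.0075, −1.01, −8.02 and −15.7 from the narrowest to the widest class, and on II it was −3.89. A centre from 0.33 to 0.67 of the span held 26.5% of isolated and 46.9% of other peaks. In settings chosen after the data were seen, peaks of at least 200 bp gave a median −log10 q of 7.83, a difference of −3.92 and a ratio of 1.79. Centres gave 8.70, −1.81 and 1.94, and arms a median of 5.83 and a ratio of 1.79. The causes of these shifts were not tested. Unknown depth limits what can be said of weak sites. No paired analysis was possible because no value of a single library was at hand, and for that reason no replicate was left out.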
